A study of Arabidopsis thaliana with 8 samples.

Results

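The pericentromere of chromosome 4 of Arabidopsis thaliana, without the heterochromatic knob of the short arm, was described here as the windows of the count table that lie between 2.4 and 7 Mb of chromosome 4. Windows are 1000 bp long and start every 500 bp, so neighbours share reads. Of 9199 windows in that range, 232 were left out because their mean input depth, relative to the median window of each input library, was 10 or more. That left 8967 members of 238296 windows on all chromosomes. The members nearest the limit inside it had relative depths of 9.85 and 9.97, and the first windows outside it had 10.04 and 10.04. Their positions and input depth alone chose the members, and 7395 of them had a relative depth under 3.

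The study mapped the binding of MBD7 by chromatin immunoprecipitation and sequencing (ChIP-seq) in seedlings 14 days old. In the MBD7 line, labelled with the number 5, the genomic MBD7 gene with 4 Myc tags is driven by the MBD7 promoter. The WT plants carry a SUC2 transgene under the 35S promoter and no Myc tag. MBD7 ChIP, MBD7 input, WT ChIP and WT input had 2 libraries each, with an antibody to c-Myc in both ChIP groups and chromatin before precipitation as input. The labels give an antibody from Millipore for MBD7 ChIP and one from Invitrogen for WT ChIP, so antibody and genotype cannot be told apart. All cells of the seedlings were pooled. The labels do not tell whether the 2 replicates of a group were grown apart. The p-values below therefore rest on the spread between libraries alone, and that spread may be technical.

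Pericentromeres flank the centromere with densely packed chromatin that is rich in transposable elements and poor in active genes. In plants their DNA carries methylated cytosines, mostly where a C precedes a G, and this methylation helps to keep transposable elements silent. Proteins with a methyl-CpG-binding domain recognise such sites, and MBD7 is the family member with several copies of that domain. Most elements in the annotation used here are listed as pseudogenes, so pseudogene windows stand largely for transposable elements and their remnants.

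The libraries held 25846940 and 23761267 counts in MBD7 ChIP, 26739116 and 19224696 in MBD7 input, 7450486 and 4971029 in WT ChIP, and 31459707 and 24679699 in WT input. The median member had 25 counts in each MBD7 ChIP library, 69 and 47 in MBD7 input, 6 and 4 in WT ChIP, and 70 and 59 in WT input. WT ChIP was thus the shallowest group, with 406 and 655 members at 0 counts. Windows of input depth 10 or more on all chromosomes took 74.5% and 72.3% of the MBD7 ChIP counts, 33.0% and 34.8% of MBD7 input, 77.8% and 76.2% of WT ChIP, and 42.8% and 39.0% of WT input. Levels below are CPM, counts scaled to library sizes that were adjusted by the trimmed mean of M-values (TMM), which takes most windows as unchanged. Over the MBD7 gene on chromosome 5 the mean level per window was 29.5 and 29.0 CPM in MBD7 ChIP, 13.7 and 13.6 in MBD7 input, 3.92 and 5.42 in WT ChIP, and 1.73 and 1.83 in WT input, so the libraries of the MBD7 line carried extra MBD7 sequence.

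MBD7 ChIP stood above MBD7 input over most of the region, and WT ChIP stood above WT input by less. The mean level per member was 6.54 and 5.68 CPM in MBD7 ChIP, 1.89 and 1.93 in MBD7 input, 4.15 and 3.46 in WT ChIP, and 2.15 and 2.16 in WT input. The libraries of each group were higher or lower than those of every other group with no overlap, with MBD7 ChIP highest and MBD7 input lowest. Relative to the chromosome arms of the same library, which TMM scaling cannot alter, the members were 5.14 ± 0.511 times as densely covered in MBD7 ChIP and 1.57 ± 0.0105 times in MBD7 input (SD, n = 2 each). The corresponding ratios were 3.48 ± 0.399 in WT ChIP and 1.80 ± 0.00353 in WT input (SD, n = 2 each).

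Of the 8667 members that passed a filter on low counts, 5159 (59.5%) were called higher in MBD7 ChIP than in MBD7 input and 68 lower. A call is a p under 0.05 in the quasi-likelihood test of edgeR after Benjamini-Hochberg adjustment over all windows. Over all windows tested, 18.1% were called higher and 6.19% lower. The 68 lower members were 0.785% of those tested, and that share was 0.308% and 0.444% without MBD7 ChIP replicate 1 or 2 and 1.42% and 1.47% without WT input replicate 1 or 2. The other 300 members did not pass the filter. With no filter, 57.6% of all 8967 were called higher. The median log2 fold change of the members tested was 1.17, beside -0.10 over all windows. Scaling by library size alone, which counts the copy-rich windows, moved the median of all windows to -2.15 and that of the members to -0.90, and 4.41% of members were then called higher and 65.8% lower. The members stood 1.26 above the median of all windows on the log2 scale under TMM and under library size alone. Of all windows called in this comparison, 74.5% were higher under TMM, 92.9% with TMM factors taken from the arms and 1.73% under library size alone.

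Set against WT ChIP, 1571 members (18.1%) were higher and 22 lower in MBD7 ChIP, beside 5.78% and 0.491% of all windows tested (edgeR, Benjamini-Hochberg). The median log2 fold change of the members was 0.53, beside 0.16 over all windows. The interaction of genotype and precipitation asks whether ChIP over input differed between MBD7 and WT plants. It called 1960 members (22.6%) higher in the MBD7 line and 24 lower, beside 6.54% and 0.573% of all windows, with a median of 0.72 beside 0.15. These comparisons share libraries with each other and with MBD7 ChIP against MBD7 input, so their counts are not separate evidence. Of all windows called, 92.2% were higher against WT ChIP and 91.9% in the interaction, and under library size alone these shares were 81.2% and 67.6%.

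Both shares moved with single libraries. For MBD7 ChIP against WT ChIP the share of members called higher was 8.68% without WT ChIP replicate 2, 11.6% without MBD7 ChIP replicate 1, and 12.1% and 12.0% without MBD7 input replicate 1 or 2. For the interaction it was 12.1% without WT ChIP replicate 2, 10.9% and 13.3% without MBD7 input replicate 1 or 2, and 11.9% and 12.7% without WT input replicate 1 or 2. With MBD7 ChIP thinned at random to the depth of WT ChIP the shares were 9.23% and 12.9%.

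Untagged plants also gave signal in the region. In WT ChIP against WT input 1618 members (18.7%) were higher and 15 lower, beside 5.13% and 0.456% of all windows (edgeR, Benjamini-Hochberg), and the median was 0.45 beside -0.09 over all windows. Under library size alone the median of the members was -1.20 and 73.7% were called lower, and higher windows were 0.838% of all calls, beside 91.8% under TMM. Without WT ChIP replicate 1 the share called higher was 7.36%. Of members with a relative input depth of 3 to 10, 64.3% were called higher in WT ChIP, against 8.56% of those with a depth under 3. For MBD7 ChIP against MBD7 input these shares were 98.7% and 50.9%. Input depth moved with both results, and its part in them was not tested.

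MBD7 input had a lower mean level in the region than WT input, 1.89 and 1.93 CPM against 2.15 and 2.16, without overlap. Between MBD7 input and WT input edgeR called 0 of 8667 members higher and 0 lower, beside 0.0107% and 0.00901% of all windows. At an unadjusted p under 0.05, 115 members were higher and 1077 lower. DESeq2's Wald test called 0 higher and 6 lower, and a fit of the inputs alone called 6 higher and 207 lower. Without either MBD7 ChIP replicate 38 were lower, and without WT ChIP replicate 1 or 2 there were 18 or 16. The median log2 fold change was -0.14, and it was -0.27 from 3 to 4 Mb and 0.02 from 6 to 7 Mb, so the inputs lay apart most where the ChIP signal was highest. MBD7 input enters the interaction, which is the log2 fold change of MBD7 ChIP over WT ChIP less that of MBD7 input over WT input. A lower MBD7 input therefore raises it. In the 100 kb bin from 2.9 to 3.0 Mb these values were 0.29 and -0.39, and the interaction was 0.68. How many of the interaction calls rest on the inputs was not tested.

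**Figure D1:**
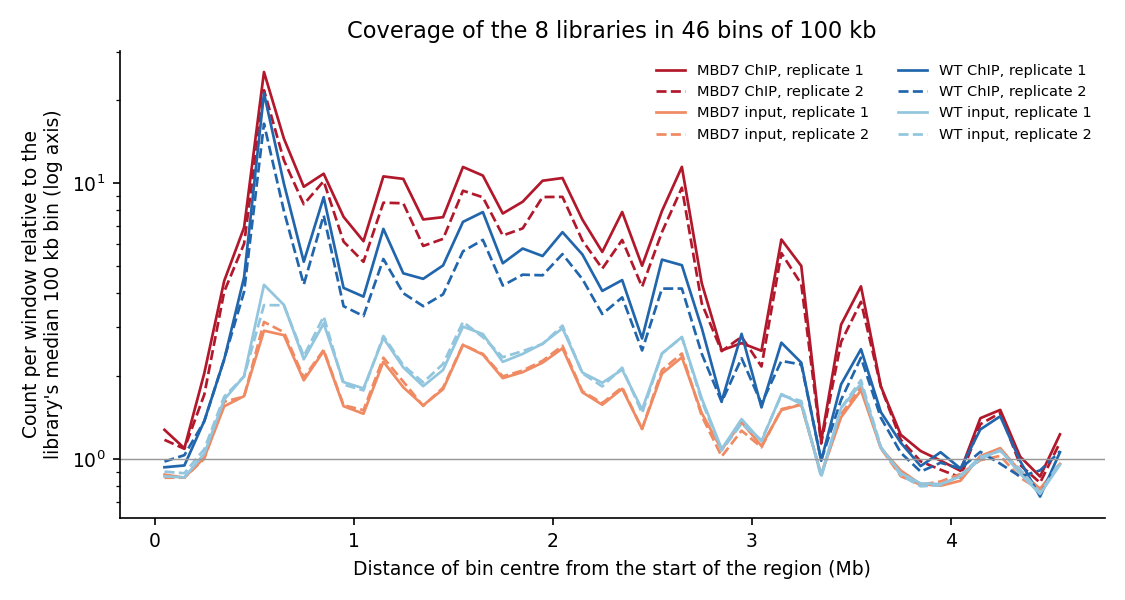
Coverage of the 8 libraries in the 46 bins of 100 kb of the region, as the count per window relative to the median bin of the same library (log axis), against the distance of the bin's centre from the start of the region in Mb. Solid lines are replicate 1 and dashed lines replicate 2. The 2 MBD7 ChIP libraries run above all others in the first part, reach 25.3 and 21.7 at the highest bin, and meet the other libraries near 1 at the far end.

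The region was not uniform along its length. From 2.4 to 3 Mb, 474 of 1119 members tested (42.4%) were higher in MBD7 ChIP than in MBD7 input, with a median log2 fold change of 0.56. From 3 to 4 Mb 1826 of 1867 (97.8%) were higher, with a median of 1.90 and none lower. From 4 to 5 Mb the share was 89.8% and the median 1.62. Both stretches were covered almost throughout by the calls. From 5 to 6 Mb 48.9% were higher, with a median of 0.75, and from 6 to 7 Mb 11.6% were higher and 59 members lower, with a median of 0.06. Leaving out single libraries moved these medians within 0.43 to 0.62, 1.77 to 1.99, 1.49 to 1.74, 0.62 to 0.81 and -0.06 to 0.10, in that order along the chromosome.

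Mean levels per window followed the same course. From 3 to 4 Mb they were 10.7 and 9.14 CPM in MBD7 ChIP, 2.43 and 2.50 in MBD7 input, 6.55 and 5.31 in WT ChIP, and 2.94 and 3.01 in WT input. From 6 to 7 Mb they were 1.35 and 1.31 in MBD7 ChIP, 1.11 and 1.11 in MBD7 input, 1.19 and 1.09 in WT ChIP, and 1.10 and 1.11 in WT input. MBD7 ChIP was the highest group in both stretches without overlap, and WT ChIP and WT input overlapped only in the second. The stretches from 2.4 to 3 Mb and from 5 to 6 Mb lay between, with 7.09 and 6.29 CPM, and 4.84 and 4.34 CPM, in MBD7 ChIP.

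MBD7 ChIP against WT ChIP and WT ChIP against WT input both had the highest share of calls from 3 to 4 Mb and the lowest from 6 to 7 Mb, and they lay apart most from 5 to 6 Mb. The share of members called higher in MBD7 ChIP than in WT ChIP was 10.01% from 2.4 to 3 Mb, 30.4% from 3 to 4 Mb, 23.1% from 4 to 5 Mb, 21.0% from 5 to 6 Mb and 2.95% from 6 to 7 Mb. In WT ChIP against WT input the shares were 15.7%, 37.5%, 30.1%, 6.92% and 1.63% in the same order. From 5 to 6 Mb the median log2 fold change was 0.65 for MBD7 ChIP against WT ChIP, close to the 0.71 found from 3 to 4 Mb, while the median of WT ChIP against WT input was 0.19 there and 0.84 from 3 to 4 Mb. These comparisons share the WT ChIP libraries, and the difference between stretches was not tested.

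Sums over 100 kb bins gave WT ChIP more counts per value. MBD7 ChIP was higher than MBD7 input in 43 of 46 bins and lower in 0, with edgeR's test over all 1193 bins, of which 36.8% were called higher and 50.3% lower. At an unadjusted p under 0.05 the count was also 43. DESeq2's Wald test called 97.8% of the 46 higher. The median log2 fold change was 1.67. MBD7 ChIP was higher than WT ChIP in 36 bins, with a median of 0.53, and the interaction was higher in 35, with a median of 0.74, beside 30.1% and 30% of all bins. Neither was lower in any of the 46 bins, whereas 18.2% and 17.2% of all bins were. WT ChIP was higher than WT input in 35 bins and lower in 0, beside 25.1% and 20.8% of all, with a median of 0.69. Between the inputs edgeR called 0 bins in either direction, 13 at an unadjusted p under 0.05, beside 0.251% of all bins called higher and 0% lower. Under library size alone MBD7 ChIP was below its input in 12 of the 46 bins and below WT ChIP in 9, the interaction was lower in 8, and WT ChIP was below its input in 11. Among all bins called, the shares higher in these comparisons were 42.3%, 62.3%, 63.6% and 54.7% under TMM, 68.6%, 82.7%, 83.6% and 86.1% with TMM from the arms, and 20.6%, 21.7%, 22.8% and 16.3% under library size alone. DESeq2's size factors gave 51.4%, 74.9%, 77.2% and 68.3%.

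The bin from 2.9 to 3.0 Mb had the most signal. Its level, the count per window relative to the library's median bin, was 25.3 and 21.7 in MBD7 ChIP, 2.92 and 3.14 in MBD7 input, 21.2 and 16.4 in WT ChIP, and 4.28 and 3.61 in WT input. MBD7 ChIP exceeded MBD7 input by 2.85 ± 0.17 (log2, SE), and WT ChIP exceeded WT input by 2.17 ± 0.16 (both called by edgeR). MBD7 ChIP overlapped none of the WT ChIP libraries, but the log2 fold change between them was 0.29 ± 0.16 and was not called (adjusted p = 0.140, edgeR). It was called at 0.49 without WT ChIP replicate 1 and at 0.86 over windows of relative input depth under 3. The interaction was 0.68 ± 0.22 (adjusted p = 0.0196, edgeR) and lost its call without MBD7 ChIP replicate 1 (0.58), MBD7 input replicate 1 (0.62) or 2 (0.73), WT ChIP replicate 2 (0.53) or WT input replicate 1 (0.55). It held 162 member windows, where the bins from 3.6 and 5.5 Mb held 200 each.

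The bins next in order were those from 3.6 to 3.7 Mb and from 3.0 to 3.1 Mb. From 3.6 to 3.7 Mb the level was 10.4 and 8.46 in MBD7 ChIP, 1.82 and 1.91 in MBD7 input, 4.71 and 3.99 in WT ChIP, and 2.15 and 2.19 in WT input. MBD7 ChIP stood above WT ChIP without overlap, by 1.07 ± 0.12 (log2, SE), and above MBD7 input by 2.23 ± 0.12, with an interaction of 1.301 ± 0.17. From 3.0 to 3.1 Mb MBD7 ChIP was above MBD7 input by 2.12 ± 0.14 and above WT ChIP by 0.54 ± 0.13, a call that was lost in a fit of the groups compared alone (0.50).

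The highest value of MBD7 ChIP against WT ChIP lay farther out, from 5.5 to 5.6 Mb, a bin picked after its values were seen. Its level was 6.25 and 5.58 in MBD7 ChIP, 1.505 and 1.52 in MBD7 input, 2.64 and 2.27 in WT ChIP, and 1.72 and 1.70 in WT input. MBD7 ChIP exceeded WT ChIP by 1.23 ± 0.10 and MBD7 input by 1.86 ± 0.10 (log2, SE), while WT ChIP exceeded WT input by 0.44 ± 0.10. The bin from 5.3 to 5.4 Mb, also chosen after its values were seen, was the reverse case. There MBD7 ChIP had 2.63 and 2.77 and WT ChIP 2.84 and 2.32, so the groups overlapped, and the log2 fold change was 0.03 ± 0.09.

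The lowest bins of MBD7 ChIP against MBD7 input were those from 6.4 Mb (-0.06 ± 0.04), 6.8 Mb (0.01 ± 0.05) and 6.7 Mb (0.05 ± 0.04), and none was called. With TMM factors from the arms these became 0.11, 0.18 and 0.23 and were called higher, and under library size alone they became -0.82, -0.74 and -0.69 and were called lower. Leaving out MBD7 input replicate 1 gave a call of -0.11 for the bin from 6.4 Mb. From 6.4 to 6.5 Mb the level was 0.907 and 0.858 in MBD7 ChIP, 0.835 and 0.883 in MBD7 input, 0.925 and 0.925 in WT ChIP, and 0.865 and 0.873 in WT input, so all 8 libraries lay between 0.835 and 0.925 of their median bin.

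**Figure D2:**
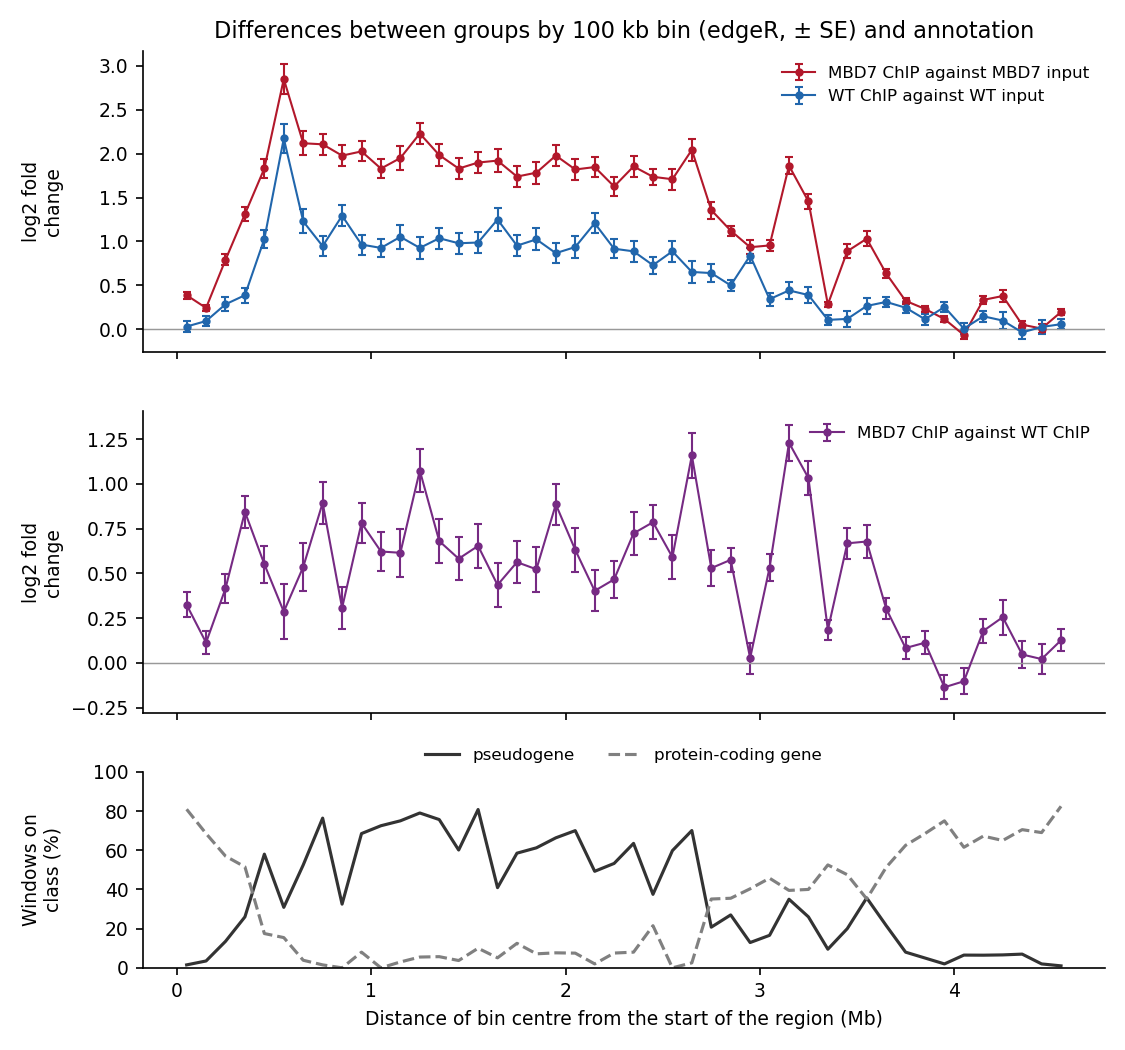
Log2 fold changes of 100 kb bins with their SE (edgeR, n = 2 libraries a group) in the top panel for MBD7 ChIP over its input and WT ChIP over its input, in the middle panel for MBD7 ChIP over WT ChIP, and the percent of member windows on pseudogenes and on protein-coding genes (bottom), against distance from the start of the region. The top curves peak at 2.85 and 2.17 in the same bin, while the middle curve peaks at 1.23 farther out, in a bin where 35.0% of windows lie on pseudogenes and 39.5% on protein-coding genes.

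Signal followed the annotation. Across the 46 bins the log2 fold change of MBD7 ChIP against MBD7 input correlated with the percent of member windows on pseudogenes (Pearson's r = 0.85, Spearman's rho = 0.86) and inversely with the percent on protein-coding genes (r = -0.92, rho = -0.85). It correlated with the median input depth of the windows too (r = 0.67, rho = 0.76). With the log2 fold change of WT ChIP against WT input r was 0.90 and rho was 0.88. All bins share the same libraries, and neighbours share annotation and depth, so these are descriptions.

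Of pseudogene windows tested, 3064 of 3281 (93.4%) were higher in MBD7 ChIP than in MBD7 input, with a median log2 fold change of 1.73. Their mean level was 10.7 and 9.09 CPM in MBD7 ChIP, 2.67 and 2.78 in MBD7 input, 5.88 and 4.85 in WT ChIP, and 3.12 and 3.17 in WT input. All 4 groups stood apart, with MBD7 ChIP highest and MBD7 input lowest. Intergenic windows came next, with 1596 of 2417 (66.0%) higher and a median of 1.37. Their level was 6.72 and 5.95 CPM in MBD7 ChIP, 1.69 and 1.67 in MBD7 input, 5.06 and 4.12 in WT ChIP, and 1.99 and 1.95 in WT input.

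Windows on protein-coding genes had little signal. In 454 of 2829 (16.0%) MBD7 ChIP exceeded MBD7 input and in 63 it was lower, with a median of 0.15, against -0.30 for protein-coding windows of the arms. Their level was 1.79 and 1.71 CPM in MBD7 ChIP, 1.22 and 1.23 in MBD7 input, 1.45 and 1.36 in WT ChIP, and 1.24 and 1.24 in WT input. MBD7 ChIP was above WT ChIP without overlap here too, but by a smaller margin. RNA genes, which were few, lay between, with 45 of 140 windows higher (32.1%). In the pericentromeres of the other chromosomes MBD7 ChIP had 8.90 and 7.64 CPM over pseudogene windows, 6.27 and 5.33 over intergenic and 1.83 and 1.75 over protein-coding ones. MBD7 input had 2.46 and 2.54, 1.56 and 1.53, and 1.31 and 1.33 there. These classes thus had the same order in MBD7 ChIP as in the region.

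By mean level WT ChIP also had pseudogene windows first, with 5.88 and 4.85 CPM beside 5.06 and 4.12 over intergenic ones. By calls and medians over input it put intergenic windows first, where MBD7 ChIP put pseudogene windows first. In WT ChIP against WT input 711 intergenic windows (29.4%) and 848 pseudogene windows (25.8%) were higher, with medians of 0.75 and 0.63, and 53 protein-coding windows (1.87%). In MBD7 ChIP against WT ChIP 1190 pseudogene windows (36.3%) were higher, with a median of 0.79, whereas 262 intergenic (10.8%) and 110 protein-coding windows (3.89%) were, with medians of 0.45 and 0.24. The pseudogene windows thus had the largest median of MBD7 ChIP against WT ChIP of the 4 classes. The comparisons share WT ChIP, and the difference between classes was not tested.

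Within a class, levels differed along the chromosome. Pseudogene windows from 5 to 6 Mb had a level of 10.3 and 9.02 CPM in MBD7 ChIP and 4.72 and 4.04 in WT ChIP, and those from 3 to 4 Mb had 11.6 and 9.59 in MBD7 ChIP and 6.47 and 5.19 in WT ChIP. Their median log2 fold change of MBD7 ChIP against WT ChIP was 1.04 from 5 to 6 Mb (48.4% higher) and 0.79 from 3 to 4 Mb (37.7% higher). In WT ChIP against WT input the medians were 0.23 and 0.78. From 6 to 7 Mb pseudogene windows had 3.08 and 2.79 CPM in MBD7 ChIP and 1.68 and 1.75 in MBD7 input, and 51 of 123 (41.5%) were higher, against 87.4% to 99.6% in the other stretches.

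Protein-coding windows also differed along the chromosome. From 3 to 4 Mb, where only 73 were tested, 56 (76.7%) were higher in MBD7 ChIP than in MBD7 input, with levels of 2.29 and 2.17 CPM in MBD7 ChIP and 0.718 and 0.705 in MBD7 input. From 6 to 7 Mb 80 of 1315 (6.08%) were higher, with 1.25 and 1.22 CPM in MBD7 ChIP and 1.19 and 1.20 in MBD7 input. Intergenic windows from 2.4 to 3 Mb had the highest level of any class and stretch, with 13.5 and 11.8 CPM in MBD7 ChIP, 1.98 and 2.06 in MBD7 input, 11.4 and 8.74 in WT ChIP, and 2.74 and 2.37 in WT input. There the level in WT ChIP came close to that in MBD7 ChIP, and 6.14% were called higher in MBD7 ChIP than in WT ChIP.

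**Figure D3:**
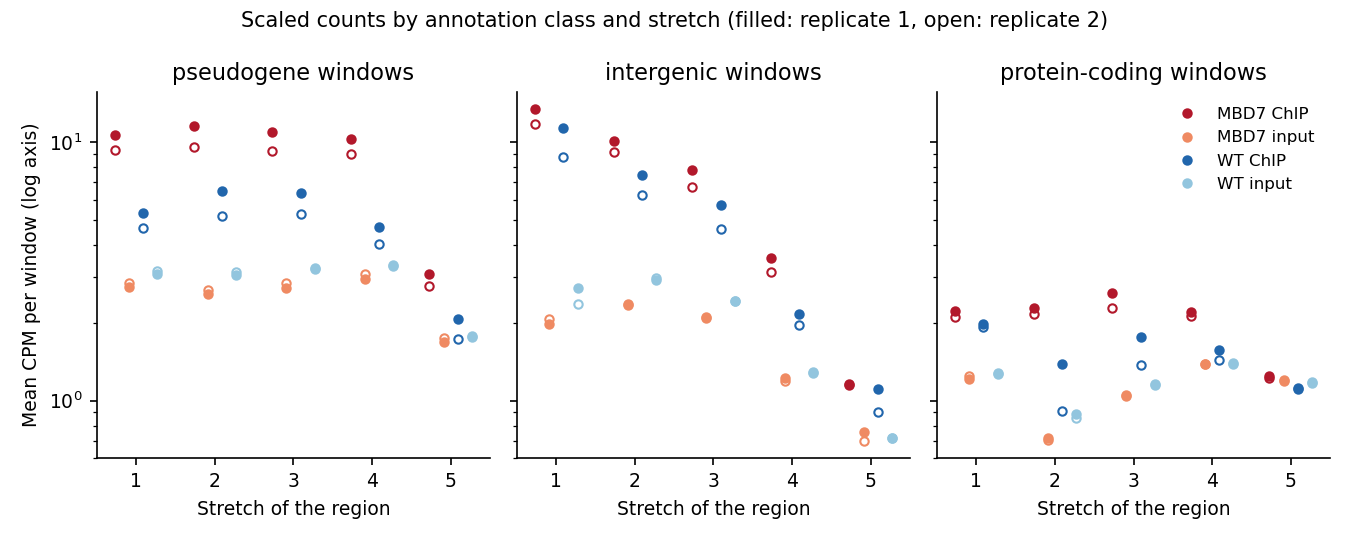
Mean CPM per window (log axis) of each library for pseudogene, intergenic and protein-coding windows in the 5 stretches of the region, numbered from 2.4 to 3 Mb (1) to 6 to 7 Mb (5). Filled points are replicate 1 and open points replicate 2. MBD7 ChIP stays between 9.02 and 11.6 CPM over pseudogenes in stretches 1 to 4 and falls to 3.08 and 2.79 CPM in stretch 5, while protein-coding windows stay under 2.60 CPM in all groups.

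Distance to the nearest pseudogene ordered the members within and outside genes. Here 3190 windows tested counted as overlapping a pseudogene, fewer than the 3281 of the pseudogene class. Some windows of that class were thus counted as lying beside a pseudogene. Of windows that overlap a pseudogene 94.4% were higher in MBD7 ChIP than in MBD7 input, of those up to 1 kb away 81.1%, at 1 to 2 kb 66.7%, at 2 to 5 kb 50.7%, at 5 to 10 kb 29.4% and beyond 10 kb 14.0%. Over pseudogenes the mean level was 10.98 and 9.31 CPM in MBD7 ChIP, 2.73 and 2.85 in MBD7 input, 6.01 and 4.96 in WT ChIP, and 3.19 and 3.24 in WT input. Beyond 10 kb it was 2.57 and 2.43 in MBD7 ChIP, 1.19 and 1.20 in MBD7 input, 2.37 and 2.04 in WT ChIP, and 1.28 and 1.26 in WT input. The input level thus also declined with distance. Among windows on protein-coding genes the shares were 78.0%, 47.5%, 37.6%, 26.9%, 18.5% and 4.72% in the same order.

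The decline was seen in MBD7 ChIP against WT ChIP as well, with shares of 36.7%, 17.4%, 13.5%, 9.53%, 4.74% and 1.64%. In WT ChIP against WT input the share was 26.3% over pseudogenes, 28.1% up to 1 kb away, then 20.7%, 13.4%, 11.3% and 8.32%. Windows just beside pseudogenes were thus called at least as often as those on them in WT ChIP, whereas in MBD7 ChIP against WT ChIP the share was lower beside them. Distance and position along the chromosome are tied to each other here, since pseudogenes are most frequent from 3 to 5 Mb, and their separate parts were not tested.

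**Figure D4:**
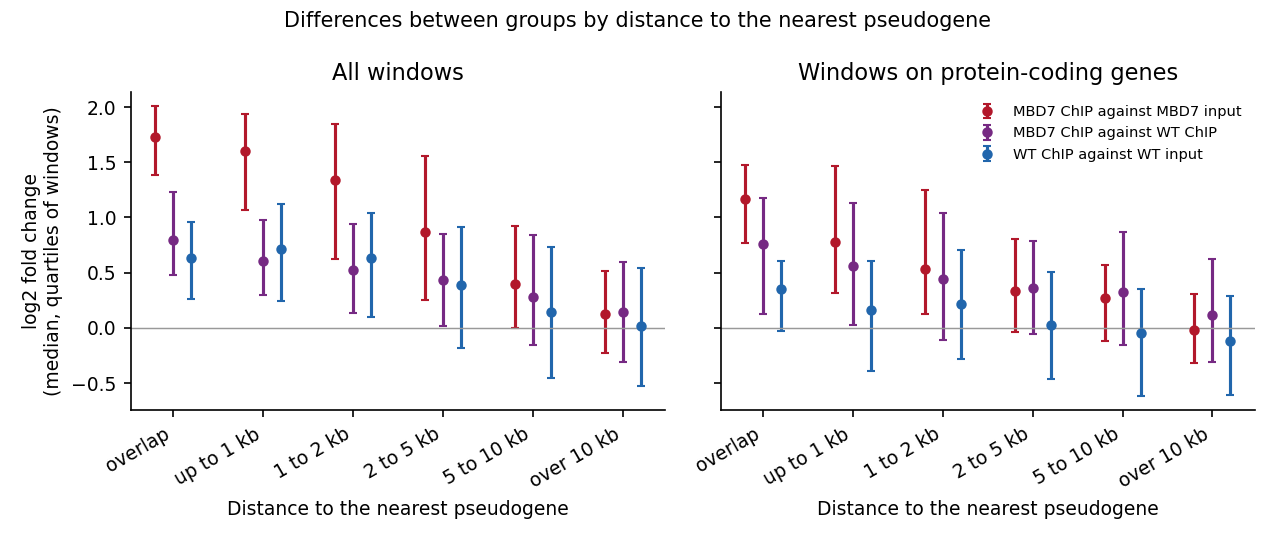
Median log2 fold change (points) with the quartiles of windows (bars) by distance to the nearest pseudogene, for all members tested (left) and those on protein-coding genes (right), in 3 comparisons. For MBD7 ChIP against MBD7 input the median goes down stepwise to 0.13 beyond 10 kb for all windows, with 1.73 over pseudogenes, and to -0.02 with 1.17 on protein-coding genes.

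Members called higher in MBD7 ChIP than in MBD7 input joined into 289 runs of touching windows that covered 2775 kb, or 60.3% of the range, with a median length of 2500 bp. The longest ran from 3428501 to 3663000 (234500 bp) and overlapped 53 pseudogenes and 2 protein-coding genes, with a median log2 fold change of 1.86. The next ran from 3133001 to 3355500 (222500 bp) over 43 pseudogenes and 1 protein-coding gene. Runs of MBD7 ChIP against WT ChIP were shorter, 376 of them with 1008 kb in all and at most 16500 bp, from 2697001 to 2713500 over 5 pseudogenes. Those of WT ChIP against WT input numbered 348 with 1015 kb, and the longest was 43500 bp. WT ChIP, the shallowest group, enters both of these, and the part of depth in run length was not tested.

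Between the runs lay 290 stretches with no member called higher in MBD7 ChIP than in MBD7 input. Windows left out for input depth can break a run and can lie in such a stretch, whatever their signal. The 25 over 20 kb long held 184 protein-coding genes and 7 pseudogenes. The longest, from 6427501 to 6505000 (77500 bp), held 16 protein-coding genes, 2 pseudogenes and 0 windows left out. The longest runs of calls thus lay from 3 to 5 Mb, and the longest gaps from 6 to 7 Mb. Among genes without a copy-rich window, 172 pseudogenes and 15 protein-coding genes lay from 3 to 4 Mb. From 4 to 5 Mb these numbers were 176 and 33, and from 6 to 7 Mb 16 and 227. Whether the runs and gaps depart from this makeup of their stretches was not tested.

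Single windows show the range of patterns. Windows that touch are named by the window of smallest p, which need not hold their highest value. The window named first for MBD7 ChIP against MBD7 input, chr4:2912501-2913500 (TAIR10), lies in AT4G05595, a pseudogene. It had 12.6 and 10.98 CPM in MBD7 ChIP, 1.08 and 1.04 in MBD7 input, 2.57 and 2.60 in WT ChIP, and 1.65 and 1.68 in WT input. MBD7 ChIP exceeded MBD7 input by 3.46 ± 0.17 and WT ChIP by 2.18 (log2; called by edgeR in both), and the groups did not overlap. Other pseudogene windows of the kind, chr4:5582001-5583000 in AT4G08750 and chr4:3683001-3684000 in AT4G06603, had log2 fold changes of 3.09 ± 0.17 and 3.11 ± 0.17 over MBD7 input and 2.43 and 3.35 over WT ChIP.

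A set of 4 intergenic windows close together gave another pattern, at chr4:2925001-2926000, chr4:2943001-2944000, chr4:2952501-2953500 and chr4:2965001-2966000. The one from 2952501 had 97.3 and 81.4 CPM in MBD7 ChIP, 8.61 and 9.59 in MBD7 input, 76.3 and 55.3 in WT ChIP, and 13.7 and 10.8 in WT input. MBD7 ChIP exceeded MBD7 input by 3.24, 3.22, 3.30 and 3.23 in the 4 windows, and WT ChIP exceeded WT input by 2.398, 2.60, 2.43 and 2.51 (all called). MBD7 ChIP against WT ChIP gave 0.39, 0.25, 0.43 and 0.19, and none was called. Their relative input depth was 7.10, 9.78, 9.41 and 3.41.

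An intergenic window far from these, chr4:6625001-6626000, had 3.90 and 1.91 CPM in MBD7 ChIP, 0.288 and 0.235 in MBD7 input, 0.514 and 0 in WT ChIP, and 0.648 and 0.554 in WT input. MBD7 ChIP exceeded MBD7 input by 3.40 ± 0.33. WT ChIP had 2 and 0 counts, so the ratio of MBD7 ChIP to WT ChIP of 9.97 has a 95% counting interval of 2.66 to 84.0. Such intervals, and the floors of 3 counts used below, cover counting error only.

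The windows named for the largest values of MBD7 ChIP against WT ChIP lay mostly on pseudogenes. In chr4:3926001-3927000 (AT4G06692) MBD7 ChIP had 4.68 and 5.01 CPM, and WT ChIP had 3 and 0 counts, a ratio of 11.3 with a 95% counting interval of 3.76 to 55.4. In chr4:3682501-3683500 (AT4G06603) the levels were 15.6 and 12.6 CPM in MBD7 ChIP and 1.54 and 0.976 in WT ChIP, a log2 fold change of 3.44 ± 0.35. The windows from 3136501 (AT4G06496), 3397501 (AT4G06546), 3623001 (AT4G06591) and 5070501 (AT4G08114) gave 3.14, 2.396, 2.95 and 2.74. None of these 6 windows was called in WT ChIP against WT input. They were picked on a comparison that uses the same WT ChIP counts, so this is not separate evidence.

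The other 2 of the 8 lay on protein-coding genes. In chr4:6954001-6955000 (AT4G11430) MBD7 ChIP had 6.76 and 8.75 CPM, MBD7 input 1.59 and 1.69, WT ChIP 1.03 and 0.651, and WT input 1.61 and 1.84, with log2 fold changes of 3.17 ± 0.42 over WT ChIP and 2.25 over MBD7 input. It stood in the stretch with the fewest calls. In chr4:5584501-5585500 (AT4G08760) MBD7 ChIP had 40.7 and 39.7 CPM, MBD7 input 4.49 and 4.69, WT ChIP 6.17 and 6.51, and WT input 5.41 and 5.47, with 2.67 ± 0.23 over WT ChIP.

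Windows lower in MBD7 ChIP than in MBD7 input were few and held few counts. The 4 lowest were chr4:6175501-6176500 (AT4G05735 and AT4G09810), with -2.47 ± 0.44, chr4:6870501-6871500 (AT4G11290), -1.57 ± 0.42, chr4:6420001-6421000 (AT4G10360), -1.51 ± 0.40, and chr4:6735001-6736000 (AT4G11020), -1.38 ± 0.45. The first had 4 and 3 counts in MBD7 ChIP, 73 and 80 in MBD7 input, 5 and 4 in WT ChIP, and 71 and 56 in WT input. All 4 lie on protein-coding genes from 6 to 7 Mb. Those in AT4G11290 and AT4G11020 lost their calls without MBD7 ChIP replicate 2 (-0.65 and -1.01), and that in AT4G11020 also with TMM factors from the arms.

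Lower in MBD7 ChIP than in WT ChIP were chr4:5839501-5840500 (AT4G09160), -2.07 ± 0.41, the intergenic windows chr4:6387501-6388500, -1.98 ± 0.30, and chr4:4066001-4067000, -0.87 ± 0.22, and chr4:5565001-5566000 (ATPUP13, a purine permease by its name, and AT4G08695), -1.02 ± 0.25. In the window from 6387501 the levels were 2.25 and 1.83 CPM in MBD7 ChIP, 1.28 and 0.912 in MBD7 input, 10.02 and 5.53 in WT ChIP, and 0.926 and 1.08 in WT input, so WT ChIP stood above all others. Without WT ChIP replicate 1 the windows from 5839501, 4066001 and 5565001 were no longer called, at -1.19, -0.58 and -0.91. The window from 5565001 also lost its call without MBD7 ChIP replicate 1 (-0.81).

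The windows named as highest in WT ChIP against WT input were all intergenic. They were chr4:6387501-6388500 with 3.00 ± 0.29, chr4:4066001-4067000 with 2.87 ± 0.24, chr4:4060501-4061500 with 2.84 ± 0.24 and chr4:5360501-5361500 with 2.47 ± 0.31. In the window from 4060501 levels were 18.8 and 11.4 CPM in WT ChIP, against 2.46 and 1.79 in WT input, beside 11.4 and 11.9 in MBD7 ChIP and 2.45 and 2.01 in MBD7 input. MBD7 ChIP and WT ChIP overlapped there.

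At the low end of WT ChIP were windows with no counts. In chr4:4803501-4804500 (CSLC12, of the cellulose synthase-like family) and chr4:2720001-2721000 (AGD13 and UBQ10) WT ChIP had 0 counts in both libraries. Against the floor of 3 counts per library MBD7 ChIP was at least 1.33-fold and at least 1.23-fold higher there. WT input was itself close to that floor in both, and the calls of WT ChIP against WT input were lost without either WT ChIP library. The call in CSLC12 was lost in 3 of the 8 fits that left out 1 library. Another window, chr4:2562001-2563000, also had 0 counts in WT ChIP, with 0.433 and 1.27 CPM in MBD7 ChIP, at or under that floor on average. The interaction was called in all 3 of these windows.

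Gene values were sums over the windows that overlap each gene, so that neighbours share counts. Windows of 1000 bp that start every 500 bp overlap each other, so a read can enter the sum of a gene more than once. The sums also reach into sequence beside the gene, where other elements may lie. The effect of both on the calls over genes was not tested. Of 1170 genes with all windows in the range, 1133 had no copy-rich window. Over 688 of these MBD7 ChIP exceeded MBD7 input and over 16 it was lower (edgeR, Benjamini-Hochberg), beside 16.8% and 13.4% of 37898 genes tested. They were 466 of 479 pseudogenes, with a median log2 fold change of 1.83, 30 of 45 transcribed pseudogenes, 35 of 114 RNA genes and 157 of 495 protein-coding genes, with a median of 0.23. The 16 genes lower became 4 without either MBD7 ChIP replicate, 5 and 1 without MBD7 input replicate 1 or 2, 6 without either WT input replicate, 9 with a replicate block and 2 with TMM factors from the arms. Under library size alone 275 pseudogenes were higher and 44 lower, and 16 protein-coding genes higher and 424 lower. Of protein-coding genes, those called higher were 32 of 96 from 2.4 to 3 Mb, 14 of 15 from 3 to 4 Mb, 31 of 33 from 4 to 5 Mb, 53 of 124 from 5 to 6 Mb and 27 of 227 from 6 to 7 Mb.

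MBD7 ChIP exceeded WT ChIP over 338 genes and was lower over 11, beside 8.93% and 3% of all genes. Of those higher, 274 were pseudogenes and 45 protein-coding. The interaction was higher for 383 genes and lower for 11, beside 8.86% and 2.34%. Without MBD7 input replicate 1 or 2 the share higher in the interaction was 18.6% or 20.1%, and without WT input replicate 1 or 2 it was 20.5% or 20.7%, beside 33.8% with all libraries. WT ChIP exceeded WT input over 345 genes, of which 301 were pseudogenes and 26 protein-coding, and was lower over 5, beside 7.62% and 1.63%. Under library size alone WT ChIP exceeded WT input over 16 pseudogenes and was lower over 172, and over protein-coding genes these counts were 0 and 370. The share of higher among all calls over genes was 55.6% for MBD7 ChIP against MBD7 input, with 74.5% under DESeq2's size factors, 88.0% with TMM from the arms and 5.21% under library size alone. It was 74.9% for MBD7 ChIP against WT ChIP (85.4% with the arms and 43.7% by library size), 79.1% for the interaction (40.0% by library size) and 82.4% for WT ChIP against WT input (0.839% by library size). Between MBD7 input and WT input edgeR called 0 of the 1133 genes higher and 0 lower, beside 0.00528% and 0.00528% of all genes. At an unadjusted p under 0.05, 6 were higher and 155 lower, and the median log2 fold change was -0.13.

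The 6 pseudogenes with the highest log2 fold change of MBD7 ChIP against MBD7 input were AT4G05595, AT4G06494, AT4G06496, AT4G06602, AT4G06495 and AT4G06640, with 3.01, 3.00, 2.97, 2.97, 2.92 and 2.89. Over AT4G05595 the mean level per window was 30.7 and 25.1 CPM in MBD7 ChIP, 3.47 and 3.46 in MBD7 input, 6.20 and 6.61 in WT ChIP, and 4.13 and 4.06 in WT input. MBD7 ChIP stood above WT ChIP by 2.13 ± 0.16, with no overlap. AT4G06494, AT4G06495 and AT4G06496 lie in the same stretch, and their names run in order. Over AT4G06602 the level was highest, with 36.4 and 27.7 CPM in MBD7 ChIP, 3.76 and 4.45 in MBD7 input, 7.38 and 7.86 in WT ChIP, and 4.58 and 4.70 in WT input. Where copies of an element are nearly identical, reads may have been split between them, so single pseudogene values are uncertain.

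The 4 highest protein-coding genes were AT4G08760 (2.80 ± 0.16), AT4G06583 (2.57 ± 0.17), AT4G07526 (2.42 ± 0.13) and AT4G06688 (2.36 ± 0.16). AT4G08760 had 26.9 and 22.4 CPM per window in MBD7 ChIP, 3.53 and 3.57 in MBD7 input, 6.52 and 4.98 in WT ChIP, and 4.12 and 4.24 in WT input. All 4 were also called higher in MBD7 ChIP than in WT ChIP, by 2.09, 1.97, 1.51 and 1.42.

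The listed genes were chosen for their known functions. Of 37 listed genes 36 lay in the region by the annotation (CPK21 did not), and MBD7 ChIP exceeded MBD7 input over 8 and was lower over 0 by edgeR with Benjamini-Hochberg adjustment, a count near the background of 16.8% higher and below that of 13.4% lower among all genes. Their median log2 fold change was 0.12, beside -0.15 for all genes. This direction depended on the scaling. Under library size alone 0 were higher and 36 lower with a median of -1.31, while 10 were higher with DESeq2's size factors and 12 with TMM factors from the arms. Without MBD7 input replicate 1 or 2 only 2 of the 36 were called, and without WT input replicate 1 or 2 only 4.

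Among genes of silencing and chromatin, AT4G08990 was called, and RDR2, SPT16, SPT5-2, PCFS4 and AT4G09980 were not. AT4G08990 had 4.00 and 4.10 CPM per window in MBD7 ChIP, 2.87 and 2.96 in MBD7 input, 3.30 and 3.14 in WT ChIP, and 3.02 and 3.33 in WT input. MBD7 ChIP exceeded MBD7 input by 0.47 ± 0.13 (log2, SE; adjusted p = 0.00774, edgeR), and the call was lost without MBD7 input replicate 1 (0.45) or 2 (0.50). RDR2, the RNA-dependent RNA polymerase that makes double-stranded RNA for RNA-directed DNA methylation, had 0.11 ± 0.13. SPT16, a subunit of the histone chaperone FACT, had 0.11 ± 0.14, and SPT5-2, a transcription elongation factor, 0.27 ± 0.13. SPT5-2 was called at 0.48 with TMM factors from the arms. PCFS4, which acts in the processing of messenger RNA ends, had 0.13 ± 0.14.

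Of 5 genes of light and photosynthesis 2 were higher. CRY1, a blue-light photoreceptor, had 1.96 and 2.57 CPM per window in MBD7 ChIP, 1.301 and 1.73 in MBD7 input, 1.33 and 2.04 in WT ChIP, and 1.61 and 1.48 in WT input. Its MBD7 ChIP libraries did not overlap MBD7 input but did overlap WT ChIP. The log2 fold change over MBD7 input was 0.60 ± 0.18, and the call was lost without MBD7 ChIP replicate 2 (0.48) or MBD7 input replicate 1 (0.40). DDB1A, an adaptor of cullin ubiquitin ligases that acts with DET1, had 2.38 and 2.57 in MBD7 ChIP, 1.80 and 1.91 in MBD7 input, 1.47 and 1.33 in WT ChIP, and 1.88 and 1.98 in WT input. MBD7 ChIP was the highest group without overlap, by 0.42 ± 0.12 over MBD7 input and 0.82 ± 0.18 over WT ChIP.

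The call of DDB1A over MBD7 input was lost without MBD7 input replicate 1 (0.37) or 2 (0.46) and without WT input replicate 1 or 2 (0.42 each). That over WT ChIP was lost in a fit of the groups compared alone (0.82, adjusted p = 0.064 by edgeR). DDB1A was the one listed gene higher in MBD7 ChIP than in WT ChIP. DET1, a repressor of light responses, had -0.27 ± 0.16 over MBD7 input, and LHCB5 and PSBQ-2, of the photosynthetic machinery, had 0.05 ± 0.18 and -0.27 ± 0.23. None of these 3 was called.

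Of the genes of development KNAT1, a homeobox regulator of the shoot meristem, was higher in MBD7 ChIP than in MBD7 input by 0.72 ± 0.21. It had 2.26 and 2.28 CPM per window in MBD7 ChIP, 1.55 and 1.20 in MBD7 input, 3.30 and 1.72 in WT ChIP, and 1.86 and 1.28 in WT input. WT ChIP lay on both sides of MBD7 ChIP, and the call was lost without MBD7 input replicate 2 (0.55). STK, PDF2, TT8, YAO and EXO were not called, with -0.31 to 0.21. In signalling and defence, CRK25, a cysteine-rich receptor-like kinase, had 2.60 and 2.19 CPM in MBD7 ChIP, 1.76 and 1.80 in MBD7 input, 1.52 and 1.81 in WT ChIP, and 2.05 and 1.75 in WT input. Its log2 fold change over MBD7 input was 0.43 ± 0.16 (adjusted p = 0.0462, edgeR). The call was lost without MBD7 ChIP replicate 1 (0.38), MBD7 input replicate 1 (0.41) or 2 (0.45), or either WT input replicate (0.43), and with the replicate number as a block. MEKK1, AT4G08850, CPK23, CPK4, SGT1B, GRF1 and ACS6 had -0.27 to 0.17 and were not called.

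Of 10 housekeeping and metabolic genes UBQ10 and MED16 were higher in MBD7 ChIP than in MBD7 input. UBQ10 and UBQ11 encode polyubiquitin and hold near-identical repeats, so their reads may be split between copies. UBQ10 had 4.92 and 10.2 CPM per window in MBD7 ChIP, 4.36 and 5.54 in MBD7 input, 7.34 and 11.7 in WT ChIP, and 4.79 and 4.60 in WT input. MBD7 ChIP overlapped both MBD7 input and WT ChIP. Its log2 fold change over MBD7 input of 0.62 ± 0.23 (adjusted p = 0.0494, edgeR) became 0.09 without MBD7 ChIP replicate 2, and the call was also lost without MBD7 input replicate 1 (0.46) or 2 (0.80) and without either WT input replicate (0.62). WT ChIP exceeded WT input by 1.00 ± 0.27. UBQ10 and UBQ11 were the 2 listed genes called in that direction, and without either WT input replicate 1 listed gene was.

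UBQ11 had 3.596 and 5.30 CPM per window in MBD7 ChIP, 3.29 and 3.51 in MBD7 input, 8.86 and 6.61 in WT ChIP, and 3.33 and 2.93 in WT input. WT ChIP was the highest group without overlap, 1.32 ± 0.21 above WT input, and MBD7 ChIP was lower than WT ChIP by -0.81 ± 0.22 on the log2 scale. Without MBD7 ChIP replicate 1 that value was -0.49 and without WT ChIP replicate 1 -0.47, neither called. MED16, a subunit of the Mediator complex that links transcription factors to RNA polymerase, had 0.43 ± 0.15 over MBD7 input. It lost the call without MBD7 ChIP replicate 1 (0.41), MBD7 input replicate 1 (0.47) or 2 (0.39) or either WT input replicate (0.43), and with the replicate number as a block.

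ALN, the allantoinase of purine breakdown, was called in WT ChIP against WT input alone of the single contrasts, at -0.84 ± 0.25 (adjusted p = 0.0441, edgeR). The call was lost without either MBD7 ChIP, MBD7 input or WT input replicate, with DESeq2's size factors or Wald test, TMM factors from the arms or the replicate number as a block, and in a fit of the groups compared alone. It had 1.69 and 1.80 CPM per window in MBD7 ChIP, 1.55 and 1.71 in MBD7 input, 0.996 and 1.08 in WT ChIP, and 1.79 and 1.90 in WT input. WT ChIP was the lowest group without overlap. ARGAH2, an arginase, had 1.03 ± 0.37 over WT ChIP and was not called (adjusted p = 0.0774, edgeR). NSF, RABG3A, CINV2, GRXS17 and ENT3 were not called in these comparisons.

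The transposon AtMu1 (AT4G08680), a Mutator-like DNA transposon, was the listed gene with the highest value over MBD7 input. It had 7.45 and 6.57 CPM per window in MBD7 ChIP, 3.93 and 4.53 in MBD7 input, 6.64 and 5.26 in WT ChIP, and 4.71 and 4.76 in WT input. MBD7 ChIP exceeded MBD7 input by 0.73 ± 0.14 (adjusted p = 0.000334, edgeR), the one listed gene called in every fit that left out 1 library. MBD7 ChIP overlapped WT ChIP, and that log2 fold change was 0.22 ± 0.17. Its value was below the median of 1.83 over the pseudogenes of the region.

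**Figure D5:**
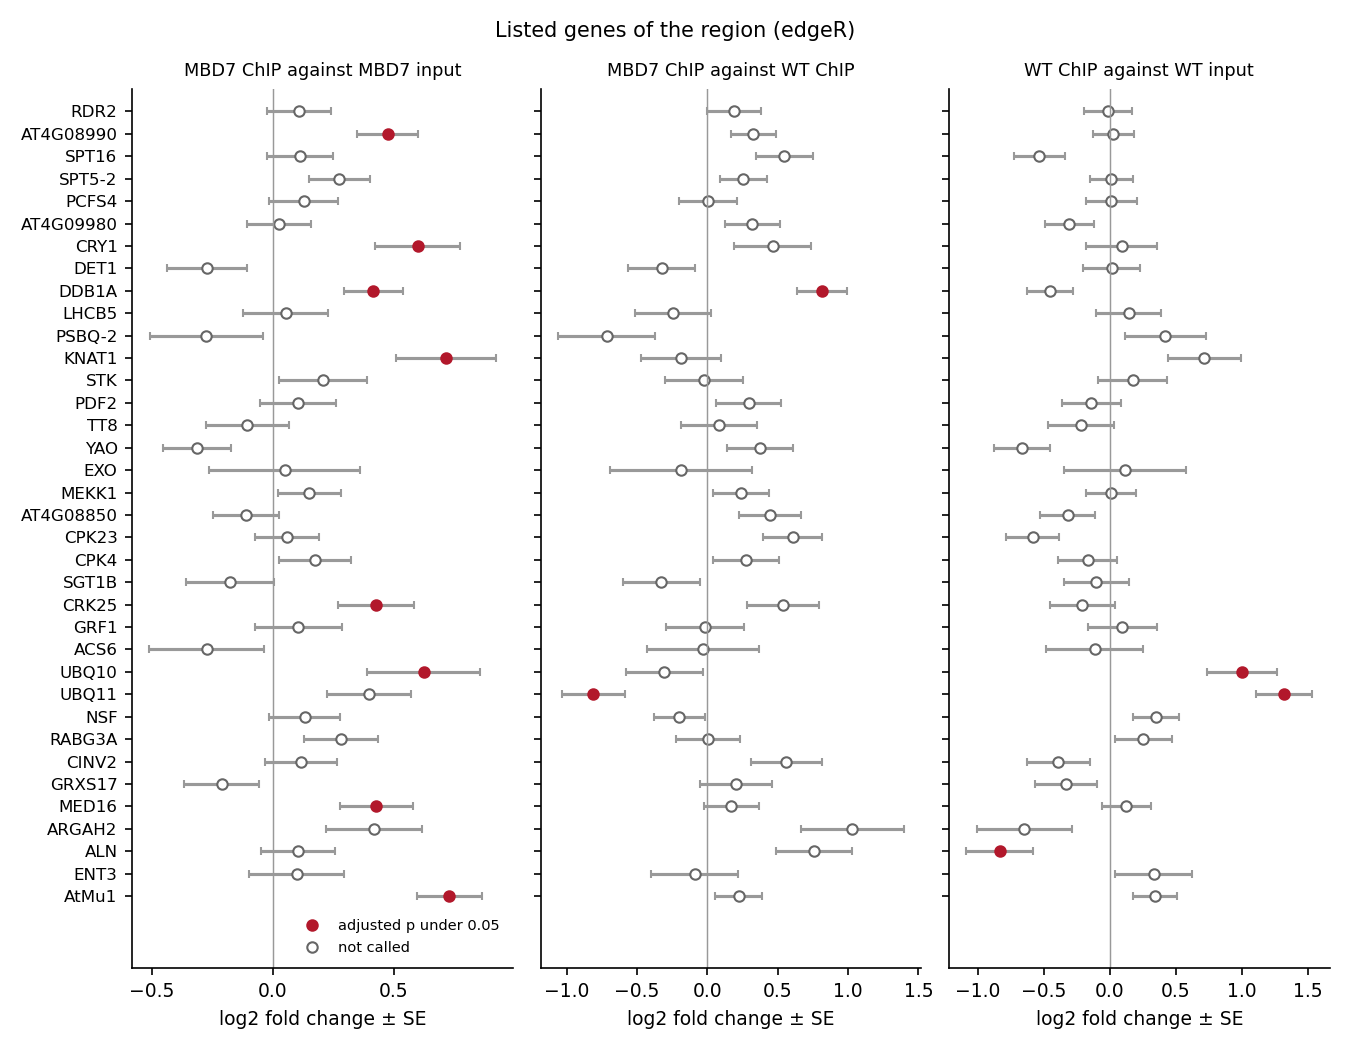
Log2 fold change with SE (edgeR, n = 2 libraries a group) of the 36 listed genes in 3 comparisons, MBD7 ChIP over MBD7 input, MBD7 ChIP over WT ChIP, and WT ChIP over WT input. Filled points have an adjusted p under 0.05. The values over MBD7 input lie between -0.31 and 0.73 with 8 called, and each other panel holds 2 or 3 called genes.

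The region was close to the pericentromeres of the other chromosomes. In MBD7 ChIP against MBD7 input 59.5% of its members tested were higher, against 54.5% of 50156 windows tested in the pericentromeres of chromosomes 1, 2, 3 and 5, where the shares by chromosome were 49.0%, 61.3%, 56.7% and 52.0%. For MBD7 ChIP against WT ChIP the shares were 18.1% and 16.7%, and for WT ChIP against WT input 18.7% and 14.0%. Coverage per window of the region over that of the other pericentromeres, as log2, was 0.21 and 0.21 in MBD7 ChIP, 0.08 and 0.09 in MBD7 input, 0.19 and 0.17 in WT ChIP, and 0.12 and 0.12 in WT input.

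MBD7 ChIP was thus higher than MBD7 input in this ratio in both libraries, by 0.13 in the mean, and higher than WT ChIP by 0.03. WT ChIP was higher than WT input by 0.06, and MBD7 input differed from WT input by -0.04. The exact permutation test, two-sided, gave p = 0.333 for each of the 4 comparisons, the smallest that 2 libraries against 2 allow in this test, which therefore cannot pass a threshold of 0.05 here. All 4 comparisons have the same Benjamini-Hochberg adjusted value of 0.333.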

How the data were processed

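The deposited table held raw counts of reads per window. The authors made these counts with Bowtie2, SAMtools and featureCounts on TAIR10, per the submitters' processing notes. Their versions, and how duplicates and reads with several alignments were handled, were not given in the sources used here. Per the labels' protocols, 3 g of seedlings grown at 23 °C with 16 h of light were fixed in 1% formaldehyde, and chromatin was sheared to about 500 bp.

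All 8 libraries entered 1 fit of edgeR (version 4.0.16, under R 4.3.3), after filterByExpr and with TMM factors and the two-sided quasi-likelihood test, with p-values adjusted by Benjamini-Hochberg over all 232963 windows, 1193 bins or 37898 genes tested. Bins of 100 kb used windows that do not overlap and left out copy-rich ones. The pericentromeres of the other chromosomes were fixed ranges with bounds at whole Mb, set by hand. The arms were all windows outside the pericentromere range of each chromosome, and both left out copy-rich windows. Values set against them depend on these bounds, and other bounds were not tried. Gene names, classes and overlaps of at least 1 bp came from a RefSeq table of TAIR10.1. Its gene coordinates were set against the TAIR10 windows, and both builds were taken as sharing nuclear coordinates. A window took the first class that applied of protein-coding gene, pseudogene (transposable element genes among them), RNA gene and intergenic. Runs joined touching members that were called. Windows carry no strand, so overlapping genes cannot be told apart.

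The named windows were, for MBD7 ChIP against MBD7 input and against WT ChIP, the 8 highest and 4 lowest that passed, with a mean of at least 20 counts and no overlap of the groups. For WT ChIP against WT input and the interaction they were the 4 highest and 2 lowest. Windows that touch were ranked together by their most extreme log2 fold change and named once, by the window of smallest p. That window need not hold the most extreme value. Between the inputs no member passed. The genes named were all listed genes in the region, and the 6 pseudogenes and 4 protein-coding genes with the highest log2 fold change, a mean of at least 50 counts and no overlap. The bins named were the 3 highest and 3 lowest. The members and lists were chosen with earlier results of these data known.

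Alternatives were DESeq2's size factors and Wald test (DESeq2 1.42.0), library size alone, TMM from the arms, no filter, each library left out, a replicate block, only the groups compared, thinning of MBD7 ChIP to WT ChIP's depth, a minimum fold of 1.5, windows without overlap, and an input depth limit of 3. The figures were drawn with matplotlib 3.10.9 from tables read by pandas 2.3.3 (Python 3.11.15). Correlations of log2 counts (pseudocount 1) between replicates over the members were 0.963 in MBD7 ChIP, 0.973 in MBD7 input, 0.852 in WT ChIP and 0.978 in WT input.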

Additional observations from a re-analysis of the deposited data

Results flagged for a closer look

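The difference between genotypes in ChIP over input was tested by an interaction term (edgeR), which called 1960 windows, 35 bins and 383 genes higher in the MBD7 line. The shares of all windows, bins and genes tested that were called higher in it were 6.54%, 30% and 8.86%. Among named bins it was 0.68 from 2.9 Mb, a call lost without MBD7 ChIP replicate 1, either MBD7 input replicate, WT ChIP replicate 2 or WT input replicate 1, and it was 1.301 from 3.6 Mb and 0.89 from 3 Mb (log2).

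Among named windows the interaction was 8.35 from 4803501, 7.91 from 2720001 and 7.88 from 2562001, where both WT ChIP libraries had 0 counts and the fitted value is no bound. The call from 4803501 was lost without WT ChIP replicate 1, and that from 2720001 without either WT ChIP replicate. The call from 2562001 was lost without MBD7 ChIP replicate 2, either MBD7 input replicate, either WT ChIP replicate or WT input replicate 1. It was 3.605 from 3926001, with 3 and 0 counts in WT ChIP, and stayed called at 10.38 without WT ChIP replicate 1, which leaves WT ChIP at 0, and at 2.78 without replicate 2. It was -2.48 from 6175501, a call lost when any library but MBD7 input replicate 1 was left out. It was -1.93 from 5839501, lost without MBD7 ChIP replicate 1 (-1.304) or WT ChIP replicate 1 (-1.05).

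Among listed genes the interaction was 0.87 for DDB1A, lost without MBD7 input replicate 1 (0.83) or WT input replicate 1 (0.91) or 2 (0.84). It was -0.92 for UBQ11, lost when any library but MBD7 ChIP replicate 2 or WT ChIP replicate 2 was left out, and 0.94 for ALN, lost when any library but MBD7 ChIP replicate 1 or WT ChIP replicate 2 was.

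It was higher for all 6 pseudogenes named: 2.37 for AT4G05595, 2.88 for AT4G06494, 2.77 for AT4G06496, 2.26 for AT4G06602, 2.53 for AT4G06495 and 2.28 for AT4G06640. For the named protein-coding genes it was 2.33 for AT4G08760, 2.21 for AT4G06583, 1.615 for AT4G07526 and 1.84 for AT4G06688.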

How the results depend on the processing

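The share of members called higher moved by over 1.5 times as follows. Under library size alone it was 4.41% of windows for MBD7 ChIP against MBD7 input, 10.7% against WT ChIP, 7.87% in the interaction, 1.14% in WT ChIP over WT input and 0.127% between the inputs. For genes it was 26.7% for MBD7 ChIP against MBD7 input and 19.6% for the interaction. With only the groups compared it was 8.80% of windows and 16.9% of genes for MBD7 ChIP against WT ChIP and 0.0692% of windows between the inputs. With MBD7 ChIP thinned it was 9.23% against WT ChIP, 12.9% for the interaction and 0.0368% between the inputs. With the minimum fold it was 6.50% of windows against WT ChIP and 8.46% in the interaction. WT ChIP exceeded WT input in 8.16% with the minimum fold and in 8.56% at an input depth under 3. Library size alone counts the copy-rich windows, thinning uses fewer counts, and fitting only the groups compared uses fewer libraries. Beyond that the cause was not tested.

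Leaving out single libraries gave 52.3% to 59.6% of windows for MBD7 ChIP against MBD7 input, 8.68% to 22.5% against WT ChIP, 10.9% to 28.1% in the interaction, 7.36% to 19.6% in WT ChIP over WT input and 0% to 0.0457% between the inputs. For bins the ranges were 91.3% to 93.5%, 67.4% to 80.4%, 71.7% to 82.6% and 69.6% to 80.4%, in the order of the comparisons with a ChIP library. For genes they were 53.8% to 65.0% for MBD7 ChIP against MBD7 input, 24.6% to 38.6% against WT ChIP and 18.6% to 40.7% for the interaction. The difference of MBD7 ChIP from MBD7 input in coverage relative to the other pericentromeres was 0.122 to 0.132. Counts of lower calls were small and also moved. Lower windows were 0.205% to 0.513% against WT ChIP (39 without MBD7 ChIP replicate 2 and 45 without WT ChIP replicate 2, beside 22). They were 0.183% to 0.410% in the interaction (16 without MBD7 ChIP replicate 1, beside 24) and 0.0800% to 0.206% in WT ChIP over its input (8 without WT ChIP replicate 1 and 7 without WT input replicate 1, beside 15). Lower genes against WT ChIP numbered 4 without MBD7 ChIP replicate 1 and 19 without WT ChIP replicate 2, beside 11. In the interaction they numbered 4, 4, 4, 18, 4 and 3 without MBD7 ChIP replicate 1, MBD7 input replicate 1, MBD7 input replicate 2, WT ChIP replicate 2, WT input replicate 1 and WT input replicate 2, beside 11.

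Signs turned in MBD7 ChIP against MBD7 input under library size alone for the bins from 6.8 Mb (-0.74) and 6.7 Mb (-0.69), and with TMM from the arms for the bin from 6.4 Mb (0.11). Against WT ChIP these bins gave -0.32 and -0.28 under library size alone, the interaction from 6.7 Mb gave -0.30, and WT ChIP against WT input gave -0.35 from 6.4 Mb and -0.32 from 6.8 Mb. Listed genes that turned in MBD7 ChIP against MBD7 input under library size alone were RDR2 (-1.32), AT4G08990 (-0.95), SPT16 (-1.31), SPT5-2 (-1.15), PCFS4 (-1.30029), AT4G09980 (-1.40), CRY1 (-0.82), DDB1A (-1.0043), LHCB5 (-1.37), KNAT1 (-0.71), STK (-1.22), PDF2 (-1.32), EXO (-1.37), MEKK1 (-1.27), CPK23 (-1.37), CPK4 (-1.25), CRK25 (-0.999929), GRF1 (-1.31), UBQ10 (-0.77), UBQ11 (-1.02), NSF (-1.29715), RABG3A (-1.14), CINV2 (-1.30322), MED16 (-0.999465), ARGAH2 (-0.998194), ALN (-1.32), ENT3 (-1.32) and AtMu1 (-0.697).

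Samples of different groups with the same number did not deviate together (r of -0.036, -0.012, 0.035 and 0.046). Counting error can hide shared deviations, so these r cannot settle whether samples were paired. The main fit did not take the numbers as a pairing. With a replicate block 59.4%, 18.1%, 22.2%, 18.4% and 0% of windows were called higher for MBD7 ChIP over MBD7 input, over WT ChIP, the interaction, WT ChIP over its input and the inputs, and among listed genes CRK25 and MED16 lost a call over MBD7 input, and ALN lost those of the interaction and of WT ChIP over its input. WT ChIP, with a median of 6 and 4 counts per member, was the shallowest group in every comparison that uses it.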

Other observations

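The 232 windows of the range left out for input depth had a mean level per window of 1820 and 1460 CPM in MBD7 ChIP, 162 and 175 in MBD7 input, 1698 and 1355 in WT ChIP, and 256 and 213 in WT input. The ChIP groups overlapped, and both stood above their inputs. Members with an input depth of 3 to 10 had 23.5 and 20.1 CPM in MBD7 ChIP, 5.29 and 5.53 in MBD7 input, 14.7 and 11.97 in WT ChIP, and 6.30 and 6.36 in WT input, and there the ChIP groups did not overlap.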
